A study of Mus musculus with 3 samples.

Results

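The genes T, Eomes, Mixl1, Gsc, Gata4, Gata6, Sox17, Foxa2, Hand1 and Tbx6 encode transcription factors that direct the formation of mesoderm and endoderm in the mouse embryo. They were listed by name, without a cut on any measured value, but with earlier results of these data known. They are 10 of the 22225 protein-coding genes of the GENCODE vM1 annotation on the mouse genome build mm9. DNA methylation was measured at the CpGs of each gene and of the 5000 bp on either side. Of the CpGs with more than 10 reads, 1038 of 970329 fell in these windows in the wild-type library, 823 of 814188 in the Dnmt3a KO library and 375 of 431923 in the Dnmt TKO library. No gene was without a covered CpG in any of the 3 libraries.

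The libraries come from mouse embryonic stem (ES) cells, and RRBS (reduced-representation bisulfite sequencing) was made from MspI-cut DNA, which favours CpG-rich sequence. Each genotype has 1 library, and the study asks how DNMT3A shapes methylation at CpG islands. Wild-type cells are of a mixed 129-C57Bl/6 background and grew on feeder cells or gelatine. Dnmt3a KO cells are of the same mixed background, were made with CRISPR-Cas9 and a pair of guides in the Dnmt3a gene, and grew on gelatine. Dnmt TKO cells are of strain J1, lack Dnmt1, Dnmt3a and Dnmt3b, and grew on gelatine. All cells were kept in medium with serum and leukemia inhibitory factor. Genotype, strain, feeder cells and library therefore cannot be told apart for Dnmt TKO, nor genotype, culture and library for Dnmt3a KO, and no difference between genotypes has a replicate check.

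Cytosine methylation at CpGs is written by DNMT3A and DNMT3B and copied at replication by DNMT1. CpG islands, which cover many gene starts, usually stay free of it, while the surrounding DNA is methylated. Regulators of the germ layers have long or multiple CpG islands that, in ES cells, are known to be held silent by Polycomb proteins rather than by DNA methylation. Neither histone marks nor expression is measured by RRBS.

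Selected sequences are given first, on the mm9 build, in the direction of the gene and 5′ to 3′, with each CpG in capitals. The Gata4 intron (chr14:63860483-63860782, minus strand) is shown because it holds the only CpGs outside CpG-rich sequence that differed in the test described below, at positions 149 and 171 of the printed sequence. The 250 bp upstream of Mixl1 (chr1:182627166-182627415, minus strand) and of T (chr17:8627038-8627287, plus strand) are shown for contrast, as stretches rich in CpGs with methylation near 0.
Gata4 intron: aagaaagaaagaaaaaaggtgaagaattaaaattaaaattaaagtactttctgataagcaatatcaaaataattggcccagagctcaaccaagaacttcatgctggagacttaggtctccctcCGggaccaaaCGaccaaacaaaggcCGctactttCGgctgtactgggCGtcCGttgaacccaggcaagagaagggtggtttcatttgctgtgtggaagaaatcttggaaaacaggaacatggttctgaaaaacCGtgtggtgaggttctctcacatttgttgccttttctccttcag
Mixl1 upstream: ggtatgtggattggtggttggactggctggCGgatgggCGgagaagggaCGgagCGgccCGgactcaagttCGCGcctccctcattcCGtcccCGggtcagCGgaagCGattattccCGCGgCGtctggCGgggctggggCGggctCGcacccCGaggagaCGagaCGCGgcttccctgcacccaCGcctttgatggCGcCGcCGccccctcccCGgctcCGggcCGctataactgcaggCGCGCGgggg
T upstream: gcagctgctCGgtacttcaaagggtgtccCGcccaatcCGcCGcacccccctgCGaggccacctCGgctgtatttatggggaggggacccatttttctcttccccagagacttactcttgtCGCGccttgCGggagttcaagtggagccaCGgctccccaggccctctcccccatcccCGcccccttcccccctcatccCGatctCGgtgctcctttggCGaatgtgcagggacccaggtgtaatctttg
The Gata4 stretch holds 7 CpGs in 300 bp at a GC content of 42.7%, and its 6 covered CpGs had 45.7 to 62.5% methylation in wild type and a mean of 5.0% in Dnmt3a KO (5 CpGs). The Mixl1 stretch holds 31 CpGs in 250 bp at a GC content of 71.6%, and none of the 18 covered CpGs exceeded 1.75% in wild type. In the T stretch, with 14 CpGs, the 6 covered CpGs had 0 of 98 methylated reads in wild type, which allows up to 3.06%, and none was covered by more than 10 reads in Dnmt3a KO.

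Another 3 MspI fragments were chosen after their values were seen, because they carry intermediate wild-type methylation inside CpG-rich sequence. They lie at the last exon and intron of Gsc (chr12:105709748-105709917), in a coding exon of Foxa2 (chr2:147869621-147869735) and upstream of Hand1 (chr11:57647223-57647338), all on the minus strand.
Gsc exon and intron: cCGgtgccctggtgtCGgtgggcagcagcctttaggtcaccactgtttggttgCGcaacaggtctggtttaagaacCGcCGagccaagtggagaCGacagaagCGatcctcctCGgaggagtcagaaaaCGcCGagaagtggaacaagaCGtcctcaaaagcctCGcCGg
Foxa2 coding exon: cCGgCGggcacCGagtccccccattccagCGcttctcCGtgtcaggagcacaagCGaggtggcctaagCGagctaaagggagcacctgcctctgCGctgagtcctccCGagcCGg
Hand1 upstream: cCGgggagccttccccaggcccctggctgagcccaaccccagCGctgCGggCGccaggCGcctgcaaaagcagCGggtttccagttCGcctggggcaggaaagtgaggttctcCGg
The covered CpGs of the Gsc fragment had 0 to 62.5% methylation in wild type, with a mean of 9.68%, against 2.43% in Dnmt3a KO. Those of the Foxa2 fragment had 1.32 to 32.4% in wild type, with a mean of 11.4%, against 0.648% in Dnmt3a KO. Those of the Hand1 fragment had 8.85 to 27.9% in wild type, with a mean of 15.5%, against 4.14% in Dnmt3a KO. The test called position 54 of the Gsc fragment and position 95 of the Foxa2 fragment, and no position of the Hand1 fragment.

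Coverage was deepest in wild type. Wild type had a median of 29 reads per listed CpG, Dnmt3a KO 17 and Dnmt TKO 12, and the sums over CpGs were 47688375, 21602895 and 9308942 reads. In Dnmt TKO, 0.0931% of all these reads were methylated. Within 1000 bp of the start of Sox2, a pluripotency gene, 0.0815% of reads were methylated in wild type, and at Pou5f1 it was 0 of 101 reads, which allows up to 2.97%. At the germline genes Dazl and Sycp3 it was 30.1% and 35.6%. Nanog had no covered CpG in any library. At Ddx4, a germline gene without a covered CpG in wild type, 11 of 133 reads were methylated in the library labelled Dnmt TKO (8.27%) and 5 of 107 in Dnmt3a KO, so that at this gene the Dnmt TKO library goes against its label.

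Each window was divided by sequence alone into a CpG-rich core and a flank. The core consists of 500 bp windows with at least 55% GC and a ratio of observed to expected CpGs of at least 0.65, and the flank is the rest. Levels are methylated reads divided by all reads, with a Wilson 95% interval. Differences are means over CpGs with more than 10 reads in both libraries, called shared CpGs, in percentage points. Their 95% interval takes all CpGs of 1 MspI fragment as fully correlated. Both kinds of interval cover counting error only. The Wilson interval, and the upper limit given for a count of 0, take each CpG of a read as a separate read. Where a read spans several CpGs it is counted more than once, so that these limits are too narrow. Whether Wilson intervals overlap is therefore a description and not a test. The study's methods for ChIP-seq and bisulfite reads state that PCR duplicates were discarded. Whether this held for the RRBS libraries cannot be seen from the counts used here, and no further removal was made. A CpG was called when its q-value from Fisher's exact test, two-sided and adjusted over all 631561 shared CpGs, was under 0.05 and the difference at least 20 percentage points. This test compares 2 libraries, not the genotypes.

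The 10 genes had more CpG-rich sequence than most. Their windows held a median of 3 CpG-rich stretches and 3737.5 bp of core, against 1 stretch and 1036 bp over all 22225 genes. In the core, methylation over all 10 genes was 2.74% in wild type (1361 of 49618 reads, Wilson 95% interval 2.6 to 2.89%), 0.675% in Dnmt3a KO (133 of 19693 reads) and 0.0545% in Dnmt TKO (3 of 5502 reads). In the flank it was 29.9% in wild type (28.6 to 31.2%), 8.09% in Dnmt3a KO (6.93 to 9.42%) and 0 of 403 reads in Dnmt TKO, which allows up to 0.744%. Over the 636 shared core CpGs, the difference between Dnmt3a KO and wild type was -2.75 percentage points (95% counting interval -3.92 to -1.57), and -1.38 when the core was taken as 1000 bp around the gene start. Over the 71 shared flank CpGs the difference was -12.5 percentage points (-16.5 to -8.55), and without Gata4, which holds 24 of these CpGs, it was -5.92. It was -2.87 with more than 20 reads (18 CpGs), -4.49 with the core taken as 1000 bp around the gene start and -24.3 within 2000 bp of the genes.

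More single CpGs were lower than higher in Dnmt3a KO. Of the shared core CpGs, 44.3% were lower and 6.92% higher, against 16.1% and 4.29% of the core CpGs of all protein-coding genes. Equal were 310 of 636, against 79.6% over all genes. A CpG without a methylated wild-type read cannot be lower. The median depth of these 636 CpGs was 50 reads for wild type but 23 for Dnmt3a KO. Sox17 had 11 core CpGs lower and 5 higher, although its mean difference was 0.02 percentage points. How far depth and wild-type level set these shares, and the later counts of lower and higher CpGs, was not tested. Of the shared flank CpGs, 69.0% were lower and 2.82% higher, against 73.2% and 16.7%, so that in the flank the share of lower CpGs was near that of all genes. Equal in the flank were 20 of 71, against 10% over all genes. Fisher's exact test called 6 of the 707 shared CpGs of the 10 genes lower in Dnmt3a KO (0.849%) and 0 higher, where 1.64% of all shared CpGs were called lower and 0.0304% higher. Called in the core were 4 of 636 CpGs (0.629%), where 0.283% of the core CpGs of all protein-coding genes were called lower and 0.00212% higher. Called in the flank were 2 of 71 CpGs (2.82%), where the share over all protein-coding genes was 4.99% lower and 0.121% higher. At their depths and wild-type levels, only 6 of the core CpGs and 9 of the flank CpGs could have been called even with no methylated read in Dnmt3a KO.

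**Figure D1:**
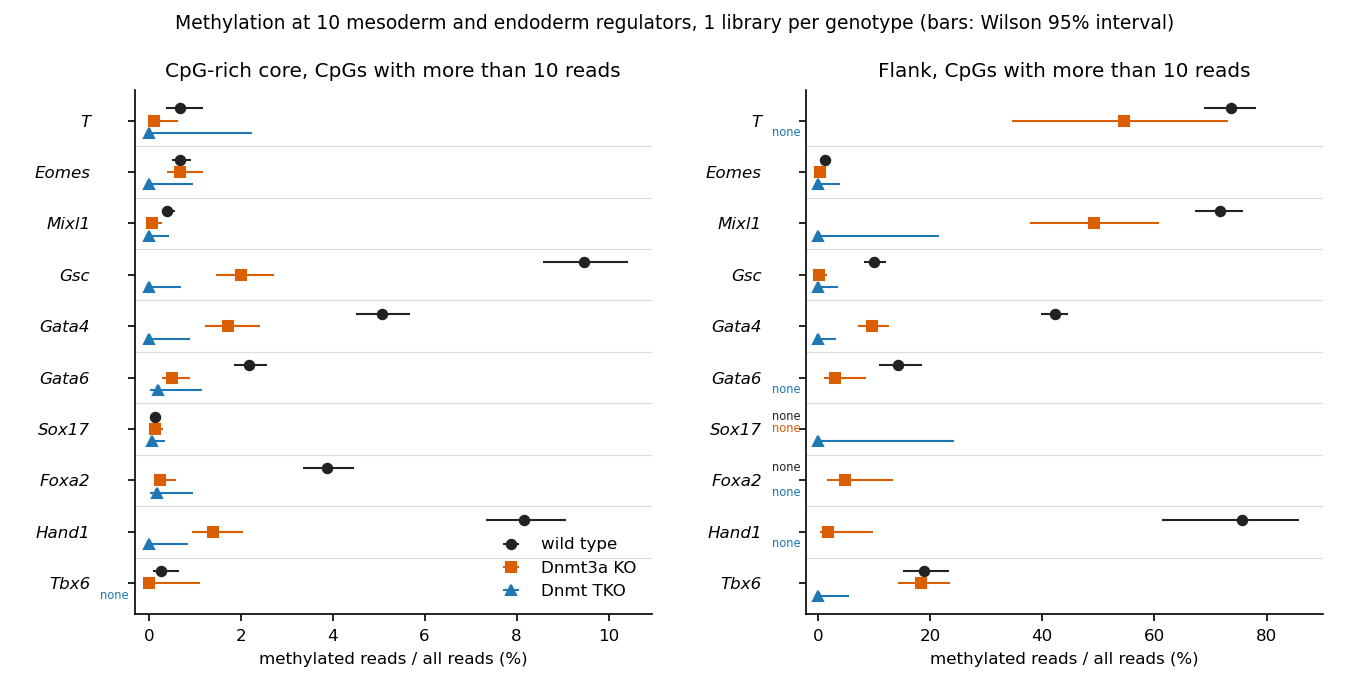
Methylation of each gene in the CpG-rich core (left) and the flank (right), as methylated reads divided by all reads in percent, with 1 point per library and Wilson 95% intervals as bars; "none" marks libraries without a CpG over 10 reads. Core levels in wild type ran from 0.125% at Sox17 to 9.45% at Gsc, and flank levels from 1.24% at Eomes to 75.6% at Hand1.

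T, Eomes, Mixl1 and Gsc are the regulators of the primitive streak, through which mesoderm and endoderm form. T (chr17:8627288-8635361), also called Brachyury, is required for posterior mesoderm and the notochord. Its core, a single stretch of 2014 bp over the gene start, had 0.672% methylation in wild type (12 of 1786 reads, 56 CpGs), 0.115% in Dnmt3a KO (1 of 873 reads) and 0 of 168 reads in Dnmt TKO, which allows up to 1.79%. All 3 intervals overlapped. Over 38 shared core CpGs the difference was -0.51 percentage points (-4.88 to 3.86). The flank of T was methylated in wild type, at 73.7% over 16 CpGs (Wilson 68.8 to 78.1%), and only 2 intronic CpGs there were also covered in Dnmt3a KO. At those CpGs, 3934 and 3981 bp from the core, wild type had 80.8% (21 of 26 reads) and 82.1% (32 of 39 reads), and Dnmt3a KO 45.5% and 63.6% with 11 reads each. The difference of -26.9 percentage points had an interval of -59.0 to 5.30.

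Eomes (chr9:118387330-118395250) encodes a T-box factor that acts in the early streak and in definitive endoderm. Its core had 0.683% methylation in wild type (40 of 5860 reads), 0.678% in Dnmt3a KO (12 of 1770 reads) and 0 of 392 reads in Dnmt TKO, which allows up to 0.765%. Its flank stood apart from those of T and Mixl1, with 1.24% in wild type over 24 CpGs and 0.403% in Dnmt3a KO over 26 CpGs. The wild-type CpGs all lie downstream of the gene, 10179 to 11567 bp past the start, while Dnmt3a KO also covered upstream and intronic CpGs. Over the 16 shared flank CpGs the difference was -0.53 (-5.13 to 4.08). Of its 40 methylated core reads in wild type, 30 came from 1 of its 4 stretches, 8250 to 8920 bp past the gene start and downstream of the gene. The means of the 17 CpGs shared there were 4.92% (wild type) and 2.70% (Dnmt3a KO; difference -2.22, -12.5 to 8.08). In the stretch over the transcript starts, 35 shared CpGs had 0.0414% in wild type and 0 of 1097 reads in Dnmt3a KO, which allows up to 0.273%.

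Mixl1 (chr1:182623174-182627165), a homeobox gene of the streak, had a core level of 0.402% in wild type (28 of 6965 reads), 0.0780% in Dnmt3a KO (2 of 2564 reads) and 0 of 870 reads in Dnmt TKO, which allows up to 0.345%. Depth at these CpGs was high, with a median of 230 reads in wild type. The 13 flank CpGs had 71.8% in wild type and the 5 covered in Dnmt3a KO 49.3%. Of those 5 shared CpGs, 4 lie in a coding exon 2129 to 2186 bp past the start, and 4 of the 5 were lower in Dnmt3a KO (difference -14.5, -40.9 to 11.9). The part of the window past the gene end overlaps the neighbouring gene Lin9.

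Gsc (chr12:105709419-105711537), a homeobox gene of the organizer, had the highest core level of the 10 genes. It was 9.45% in wild type (369 of 3903 reads, 122 CpGs, Wilson 8.58 to 10.4%), 2.00% in Dnmt3a KO (39 of 1952 reads, 1.46 to 2.72%) and 0 of 542 reads in Dnmt TKO, which allows up to 0.554%. The intervals of the 3 libraries did not overlap. Over 83 shared core CpGs the difference was -7.05 percentage points (-11.7 to -2.42), with 51 CpGs lower, 10 higher and 22 equal. The higher wild-type values lay in an upstream stretch, 1697 to 710 bp before the gene start, and in the last exon and intron. The upstream stretch, with 31 shared CpGs, averaged 10.4% in wild type and 3.33% in Dnmt3a KO (difference -7.11, -14.9 to 0.74). The stretch over the gene start and body had 8.96% and 1.94% over 52 CpGs (difference -7.01, -12.7 to -1.30). Restricted to CpGs within 1000 bp of the gene start, the difference turned to 0.216 (-8.25 to 8.68, 19 CpGs).

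Gsc held 3 of the 6 called CpGs. The one with the smallest q, 1674 bp past the start in an intron, had 45 of 72 methylated reads in wild type (62.5%), 3 of 43 in Dnmt3a KO (6.98%) and 0 of 21 in Dnmt TKO, which allows up to 14.3% (Fisher's exact test, q = 2.31e-06). It is position 54 of the printed Gsc fragment. It stood apart from its neighbours in wild type, since the other 11 CpGs of the fragment had 0 to 14.0% and the nearest, 23 bp away, had 2.78% of 72 reads. The other two called CpGs, 1997 and 2008 bp past the start in the untranslated end of the last exon, had 55.9% and 64.7% in wild type and 5.0% and 11.8% in Dnmt3a KO (q = 0.0141 and 0.0289). Over the 10 CpGs of that fragment, wild type had 26.7% and Dnmt3a KO 3.88% (difference -22.8, -37.6 to -8.04). The flank of Gsc within 3000 bp upstream was low in both libraries, and its 15 shared CpGs had 2.21% and 0.444%. Of the 92 methylated flank reads of Gsc in wild type, 74 came from 3 CpGs downstream of the gene, 6189 to 6288 bp past the start, which had 78.8 to 84.8% and no cover in Dnmt3a KO.

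Gata4, Gata6, Sox17 and Foxa2 act in endoderm. Gata4 (chr14:63817759-63890529) encodes a zinc-finger factor of primitive endoderm and of the heart. Its gene record begins upstream of its CpG-rich sequence, and 4 of its 7 transcripts start at least 26421 bp further along. The core had 5.06% methylation in wild type (264 of 5215 reads, Wilson 4.5 to 5.69%), 1.72% in Dnmt3a KO (31 of 1805 reads, 1.21 to 2.43%) and 0 of 429 reads in Dnmt TKO, which allows up to 0.699%. The difference over 63 shared core CpGs was -4.59 percentage points (-8.02 to -1.15), with 48 CpGs lower and 5 higher.

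The flank of Gata4 differed more than that of the other 4 regulators with at least 5 shared flank CpGs. It had 42.2% methylation in wild type (693 of 1642 reads, 52 CpGs), 9.62% in Dnmt3a KO (45 of 468 reads, 35 CpGs) and 0 of 115 reads in Dnmt TKO, which allows up to 2.61%. Of the 45 methylated reads of Dnmt3a KO, 21 came from 3 CpGs 588 to 616 bp past the gene start, which had 53.8 to 63.6% there and no cover in wild type. Over 24 shared CpGs the means were 31.0% and 5.67% (difference -25.4, -33.6 to -17.2), with 22 CpGs lower, 2 equal and none higher. The fragment of the printed Gata4 intron had a mean of 51.2% over 5 shared CpGs in wild type and 5.0% in Dnmt3a KO (difference -46.2, -67.8 to -24.5). Both called flank CpGs lie in it, 254 and 232 bp from the core, and each had 19 of 34 methylated reads in wild type (55.9%) and 0 of 12 in Dnmt3a KO, which allows up to 25% (q = 0.0350 each).

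Another 2 parts of the Gata4 flank had the same order of levels. At 20116 to 20304 bp from the gene start, 7 intronic CpGs had 25.9% in wild type and 7.89% in Dnmt3a KO (difference -18.0, -37.1 to 1.10). At 27324 to 27371 bp, 2 CpGs had 35.9% in wild type and 0 of 37 reads in Dnmt3a KO, which allows up to 8.11% (difference -35.9, -52.6 to -19.2). From 37981 bp past the start onwards, wild type had 66.7 to 100% at 15 of the 18 CpGs it covered, and at the other 3, downstream of the gene, 0 of 84 reads, which allows up to 3.57%. Dnmt3a KO shared only 2 of these 18 CpGs, both among the 3 without a methylated read.

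Gata6 (chr18:11052508-11085633) encodes the GATA factor that is required for primitive endoderm. Its core had 2.18% methylation in wild type (135 of 6186 reads), 0.509% in Dnmt3a KO (12 of 2356 reads) and 0.205% in Dnmt TKO (1 of 488 reads). The stretch over the gene start was low, with 0.519% in wild type over 14 CpGs and 0 of 335 reads in Dnmt3a KO, which allows up to 0.896%. The fragment with the highest wild-type mean among those with shared CpGs lay 4459 to 4399 bp upstream, at the edge of a core stretch, where 4 CpGs had 26.9% in wild type and 2.08% in Dnmt3a KO (difference -24.8, -52.5 to 2.82). The 5 shared flank CpGs had 14.4% and 1.67% (difference -12.7, -25.5 to 0.07). All intervals of the Gata6 differences named here included 0.

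Sox17 (chr1:4481009-4486494), which encodes an HMG-box factor required for definitive endoderm, had the lowest core level of the 10 genes in wild type. It was 0.125% in wild type (12 of 9592 reads, 115 CpGs), 0.142% in Dnmt3a KO (6 of 4223 reads, 113 CpGs) and 0.0631% in Dnmt TKO (1 of 1586 reads, 87 CpGs), and the 3 Wilson intervals overlapped. No single CpG exceeded 5.56% in wild type or 6.67% in Dnmt3a KO. The difference over 103 shared CpGs was 0.02 percentage points (-2.6 to 2.64). Between 921 bp upstream and 2797 bp past the start, no CpG had more than 10 reads in wild type, so that the level at the start itself was not measured there. No flank CpG of Sox17 had more than 10 reads in wild type or Dnmt3a KO.

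Foxa2 (chr2:147868613-147872705) encodes a forkhead factor of endoderm, node and notochord. Its core had 3.88% methylation in wild type (183 of 4720 reads, Wilson 3.36 to 4.47%), 0.249% in Dnmt3a KO (5 of 2009 reads, 0.106 to 0.581%) and 0.172% in Dnmt TKO (1 of 581 reads, 0.0304 to 0.968%). The Dnmt3a KO interval lay under that of wild type and overlapped that of Dnmt TKO. Over 84 shared core CpGs the difference was -3.32 percentage points (-6.22 to -0.42), with 45 CpGs lower and 3 higher. Methylation was highest in the third of its 5 core stretches, 1850 to 3127 bp past the start, at 7.63% in wild type and 0.216% in Dnmt3a KO over 30 CpGs (difference -7.42, -12.3 to -2.49). The called CpG, position 95 of the printed Foxa2 fragment, had 23 of 71 methylated reads in wild type (32.4%) and 1 of 33 in Dnmt3a KO (3.03%, q = 0.0480). The flank of Foxa2 had no CpG over 10 reads in wild type, and 3 of 61 reads were methylated at 4 CpGs in Dnmt3a KO.

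Hand1 and Tbx6 act after the streak, in lateral and extra-embryonic mesoderm and in paraxial mesoderm. Hand1 (chr11:57642207-57646320), a basic helix-loop-helix factor, had a core level of 8.16% in wild type (314 of 3849 reads, Wilson 7.33 to 9.06%), 1.39% in Dnmt3a KO (25 of 1798 reads, 0.944 to 2.04%) and 0 of 446 reads in Dnmt TKO, which allows up to 0.673%. The difference over 56 shared CpGs was -6.10 percentage points (-11.0 to -1.16), with 42 CpGs lower and 8 higher, but no CpG was called. Each of its 5 core stretches was lower in Dnmt3a KO, and 1 had an interval below 0. That stretch, 1076 to 543 bp upstream of the start, had 16.3% in wild type and 4.14% in Dnmt3a KO over 7 CpGs (difference -12.1, -20.1 to -4.20). A fragment that overlaps this stretch, 1208 to 1027 bp upstream, had 41.7% over 7 CpGs in wild type and no covered CpG in Dnmt3a KO. Over all 14 wild-type CpGs of the stretch, 18.5% of reads were methylated.

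The flank of Hand1 shows how coverage sets what can be compared. Its 3 wild-type CpGs had 75.6% (34 of 45 reads) and its 4 Dnmt3a KO CpGs 1.89% (1 of 53 reads), but none was shared. The wild-type CpGs lie 1211 and 1208 bp upstream and 5845 bp past the start, while those of Dnmt3a KO lie 878 to 941 bp past it. The levels of the 2 libraries therefore describe different places, and no difference was computed.

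Like Sox17 and Hand1, Tbx6 (chr7:133924997-133929074), a T-box factor of paraxial mesoderm, has no CpG-rich stretch at its own start. Its only core stretch lies 5039 to 4027 bp upstream, in a window that also overlaps Ypel3, Ppp4c and Gm9967, and had 0.259% in wild type (4 of 1542 reads), 0 of 343 reads in Dnmt3a KO, which allows up to 0.875%, and no covered CpG in Dnmt TKO. In the flank, 4 CpGs 272 to 187 bp upstream of the start were shared. They had 2 to 12 methylated reads of 57 to 60 in wild type and 0 of 68 reads together in Dnmt3a KO, which allows up to 4.41% (difference -13.4, -25.1 to -1.78). The whole-flank levels of 18.9% and 18.5% are equal within their intervals but again describe different CpGs, since 10 of the 14 flank CpGs of Dnmt3a KO lie 3690 to 3545 bp upstream, where wild type had no CpG over 10 reads.

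**Figure D2:**
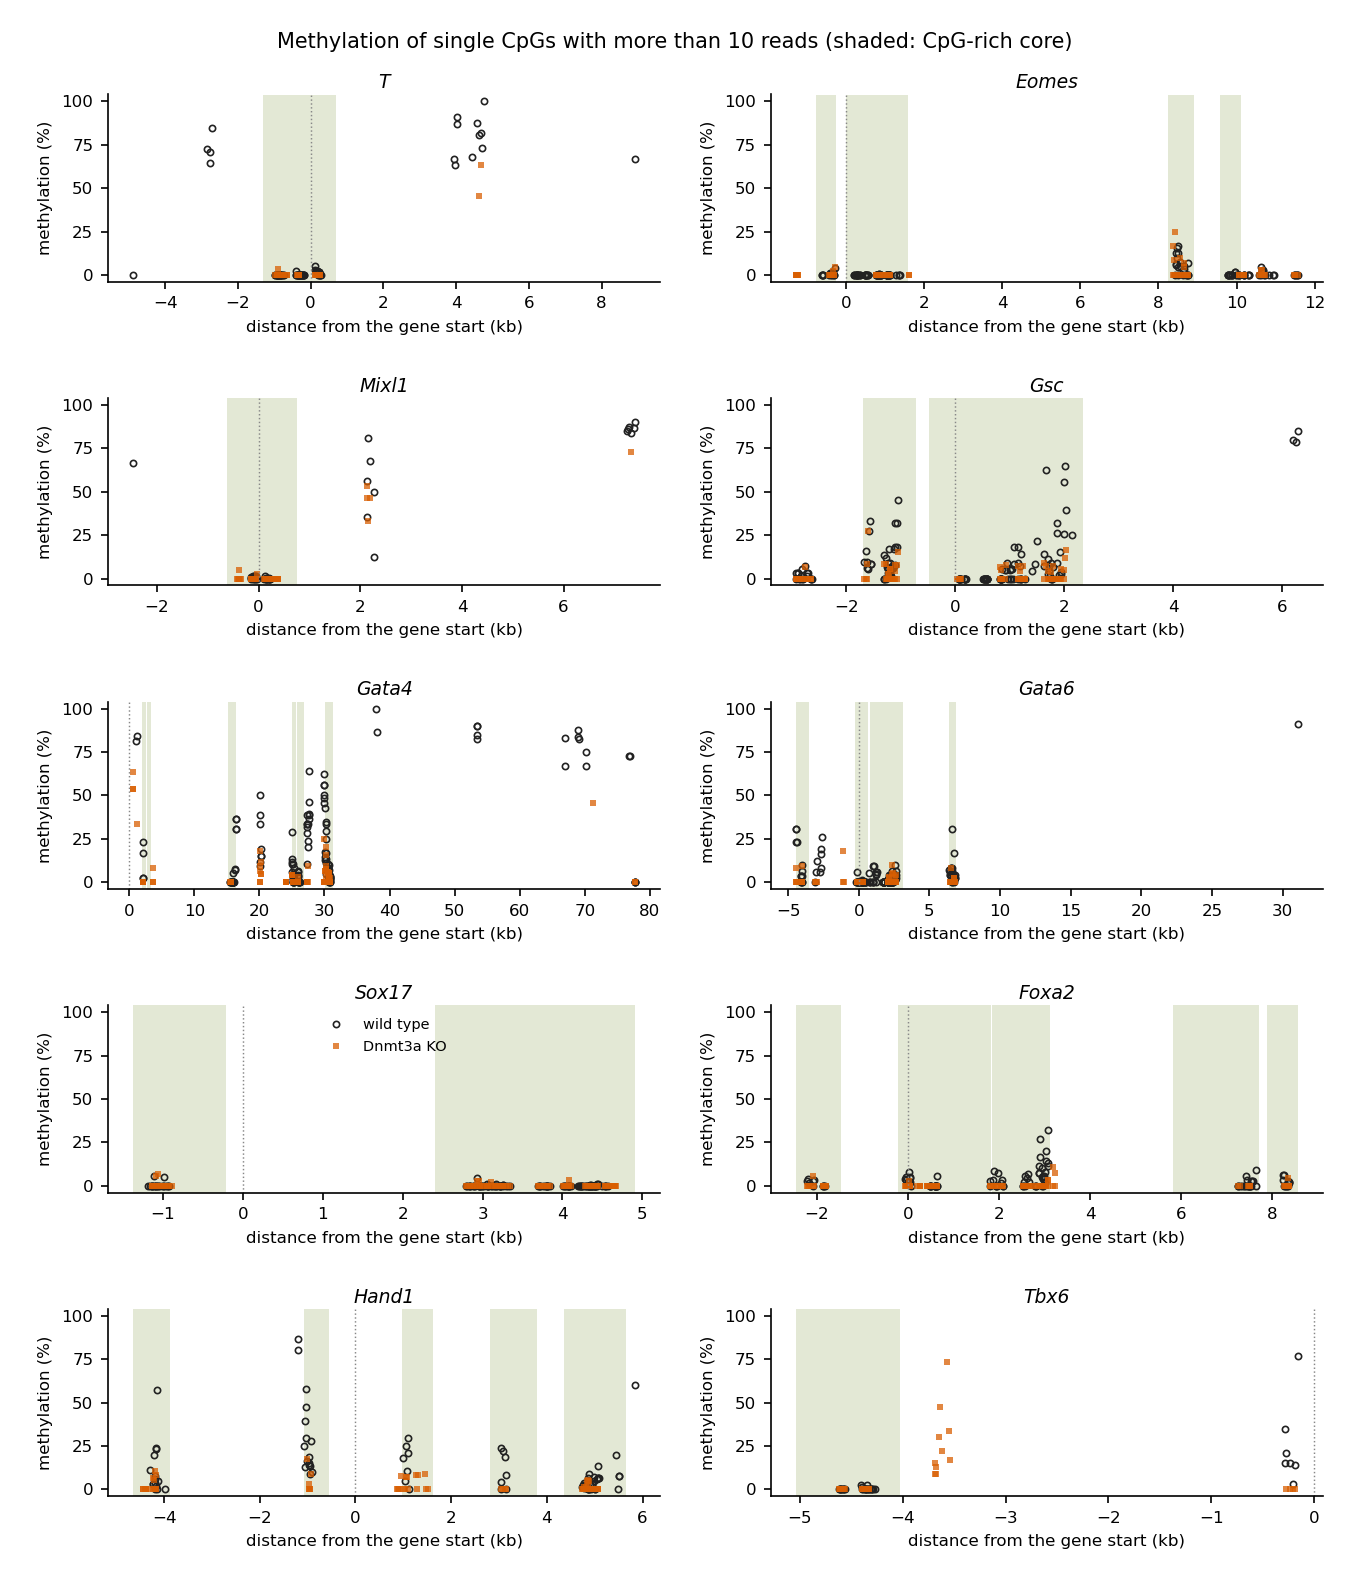
Methylation in percent of each CpG with more than 10 reads, against distance from the gene start in kb, for wild type (open circles) and Dnmt3a KO (squares), with the CpG-rich core shaded and the gene start dotted. Wild-type CpGs at the starts of T, Eomes and Mixl1 lie near 0, the start of Sox17 has no wild-type CpG with more than 10 reads, and the wild-type CpGs between 25 and 75% at Gsc, Gata4 and Hand1 lie away from the gene start.

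Ordered by core level in wild type, the genes were Gsc, Hand1, Gata4, Foxa2, Gata6, Eomes, T, Mixl1, Tbx6 and Sox17. The Wilson intervals of Gsc and Hand1 overlapped, and so did those of each neighbouring pair from Eomes down to Sox17. Those of Hand1, Gata4, Foxa2 and Gata6 did not reach the interval of the next gene. Because these intervals take the CpGs of a read as separate, the order is less certain than they show, and it was not tested. In the flank, Hand1, T and Mixl1, between 75.6% and 71.8%, were not separated from their neighbours in that order. Gata4 lay under them at 42.2%, followed by Tbx6, Gata6 and Gsc between 18.9% and 10.0%, and by Eomes. These flank levels rest on different places in each gene and were not read as an order of the genes.

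Beside all protein-coding genes with at least 5 shared core CpGs, the 10 genes had more core methylation in wild type. The mean over shared CpGs was above 5% at 3 of the 10 genes (Gsc, Hand1 and Gata4), against 9.73% of 12667 genes, and under 1% at 4 of the 10, against 76.1%. The median was 2.00% against 0.163%, and the median difference between Dnmt3a KO and wild type -1.29 percentage points against -0.09. Among the 1428 genes with at least 3 CpG-rich stretches in their window, a group chosen after the values were seen, 25.9% were above 5%, and the median was 1.43% in wild type with a difference of -0.80. In the flank, 5 of the 10 genes had at least 5 shared CpGs, with a median difference of -12.7 percentage points against -12.0 over 8332 genes.

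**Figure D3:**
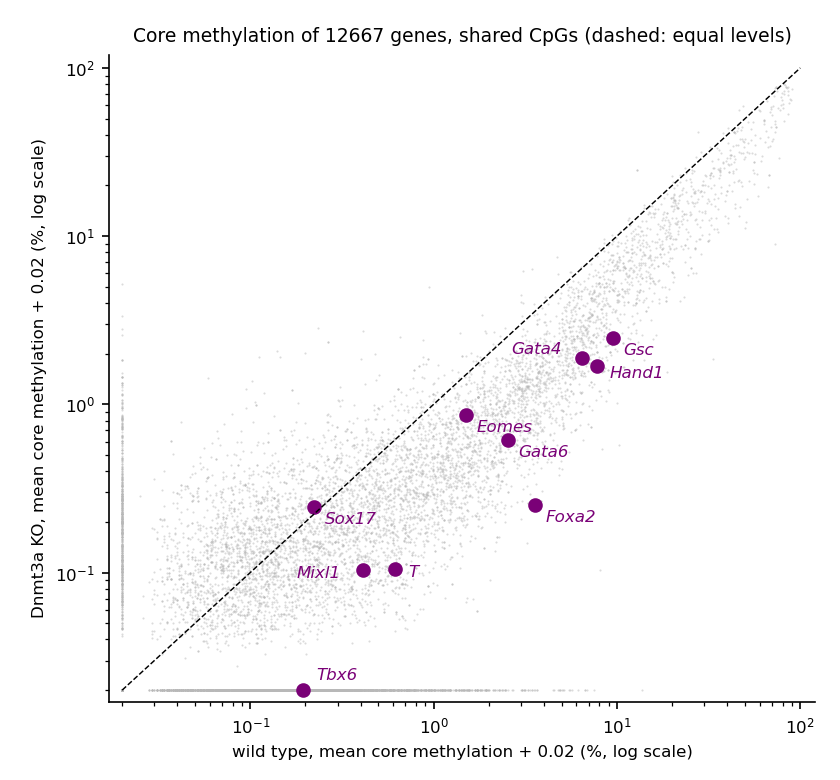
Mean methylation over shared core CpGs in wild type (x) and Dnmt3a KO (y), in percent plus 0.02 on log axes, for 12667 protein-coding genes (grey), with the 10 regulators in purple and equal levels dashed. Of the 10 regulators, 9 lie under the dashed line and Sox17 just above it, and Foxa2 lies farthest under it among those above 1% in wild type.

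The share of the wild-type level that was left in Dnmt3a KO, as the ratio of the means over shared core CpGs, was lowest at Foxa2 and highest at Eomes among the 6 genes above 1% in wild type. At Foxa2 6.53% was left, at Hand1 21.6%, at Gata6 23.4%, at Gsc 25.9%, at Gata4 28.9% and at Eomes 56.9%. These shares have no interval, and their order was not tested. The core differences of Eomes (-0.64, -4.09 to 2.82) and Gata6 (-1.94, -4.58 to 0.70) had intervals that included 0. The share at Foxa2 rests on 5 methylated reads of 1858 in Dnmt3a KO, and the share at Eomes on 9. Pooled over reads, the wild-type level of Eomes at these CpGs was 0.706%. Among the 2363 genes with 1 to 10% in wild type, the median was 34.1% and the quartiles were 20.1 and 50.2%. Of these genes, 8.63% had a smaller share left than Foxa2 and 80.7% a smaller one than Eomes. The limits of 1 and 10% were set after the values were seen.

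Most shared core CpGs of these genes, 433 of 636, lay outside the stretches that hold a transcript start, and their wild-type mean was higher. Of the 31 CpG-rich stretches in the windows, 7 hold a transcript start of the gene. The means over their 203 shared CpGs were 2.83% (wild type) and 0.557% (Dnmt3a KO; difference -2.27, -4.25 to -0.30), and the median stretch of the 7 had 0.599% in wild type. The other stretches, 23 of them with shared CpGs, had 4.03% and 1.06% over 433 CpGs (difference -2.97, -4.42 to -1.51), with a median of 4.91% in wild type over those with at least 5 shared CpGs. Of the 7, the stretch of Gsc was the highest, at 8.96% in wild type. Taking each stretch by itself was a choice made after the data were seen.

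**Figure D4:**
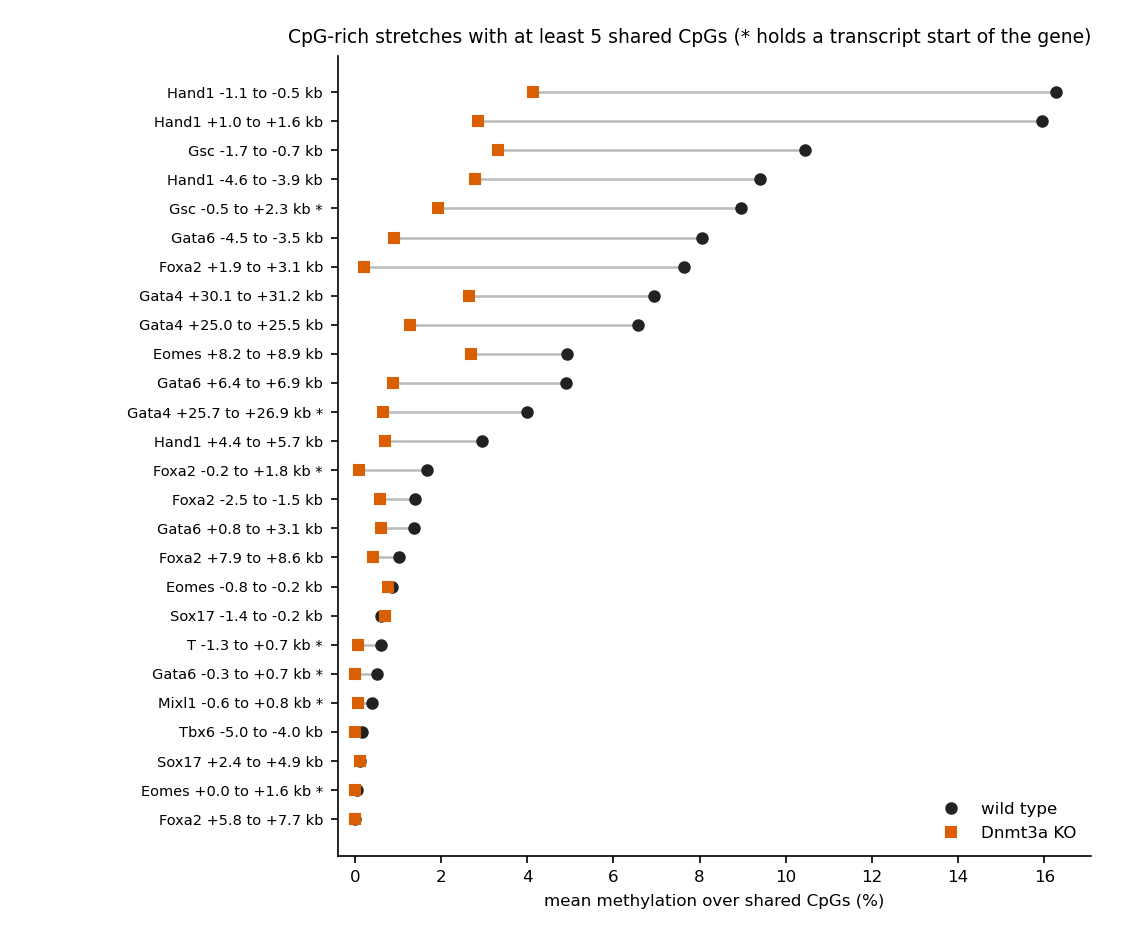
Mean methylation over shared CpGs, in percent, of each CpG-rich stretch with at least 5 shared CpGs in wild type (circles) and Dnmt3a KO (squares), named by gene and by distance from the gene start in kb, with stretches that hold a transcript start starred. The 2 highest stretches lie at Hand1, at 16.3% and 16.0% in wild type, and those over the starts of T, Mixl1, Gata6 and Eomes lie under 1%.

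By MspI fragment, the unit of which CpGs share reads, 76 fragments had at least 3 shared CpGs. Dnmt3a KO was lower in 56 of them and higher in 7. The interval lay below 0 in 5 of the 76, at Gata4, Gsc, Hand1, Foxa2 and Tbx6, and above 0 in none.

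The flank was also divided by distance from the core. Up to 500 bp from the core, the 19 shared CpGs of the 10 genes had 24.8% in wild type and 2.46% in Dnmt3a KO (difference -22.3, -30.1 to -14.6), so that 9.90% of the wild-type level was left. Over all protein-coding genes, 11884 CpGs at that distance had 19.1% and 10.7%, with 56.1% left. These 19 CpGs belong to 3 genes and 9 fragments, with 11 at Gata4, 4 at Gata6 and 4 at Eomes. At Gata4 the means were 37.4% and 3.48%, at Gata6 15.0% and 2.08%, and at Eomes 0 of 98 and 0 of 53 reads were methylated, which allows up to 3.06% and 5.66%. Without Gata4 the difference in this class was -6.45. The classes farther away were not computed without Gata4. From 500 to 1000 bp, 14 CpGs had 12.0% and 3.45% (28.8% left, against 64.0% over all genes). From 1000 to 2000 bp, 21 CpGs had 13% and 8.86% (68.0% against 71.6%). Over 2000 bp away, 17 CpGs had 29.0% and 13.9% (48.1% against 77.7%). With the core defined by 200 bp windows, which takes in much of this nearest sequence, only 12 CpGs remained up to 500 bp away, and their difference was -5.42 (-13.5 to 2.64), against -40.1 from 500 to 1000 bp (3 CpGs) and -26.9 over 2000 bp (2 CpGs). The class with the largest difference therefore depended on the definition of the core, and the value of the nearest class depended on Gata4.

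**Figure D5:**
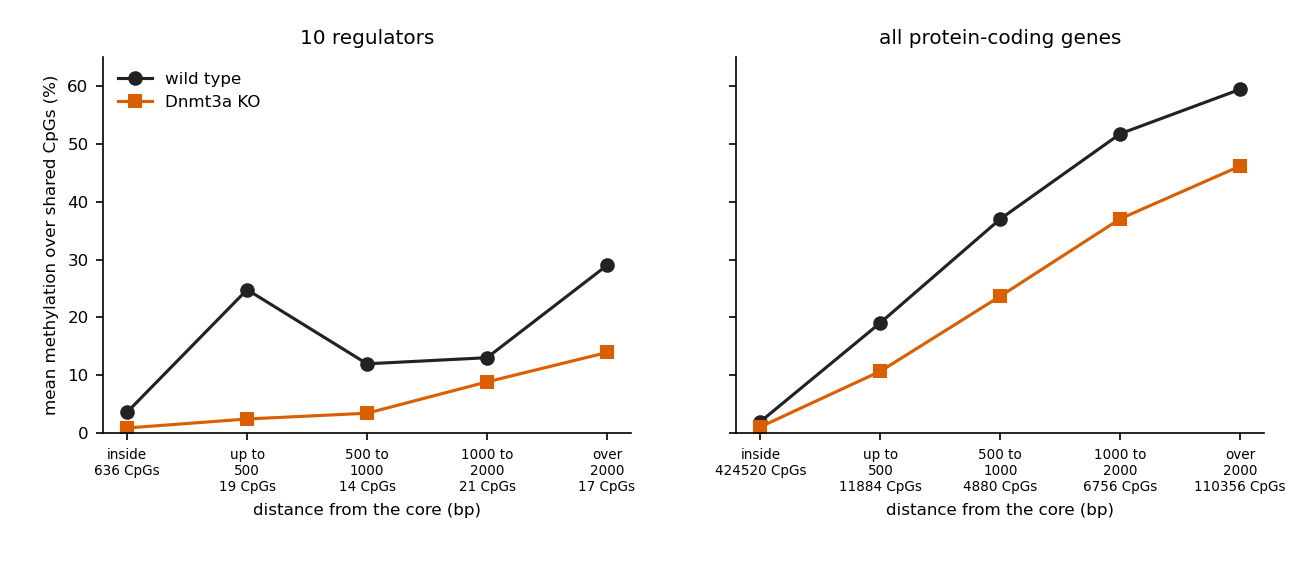
Mean methylation over shared CpGs, in percent, in wild type (circles) and Dnmt3a KO (squares) by distance from the CpG-rich core in bp, for the 10 regulators (left) and for all protein-coding genes (right), with the number of CpGs under each class. Up to 500 bp from the core, Dnmt3a KO lies at 2.46% at the 10 regulators and at 10.7% over all genes.

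The shared CpGs are not a fair sample of the flank. In wild type, 78 flank CpGs over 10 reads were not covered in Dnmt3a KO, and they had a mean of 51.9% (median 23 reads), against 19.8% at the 71 shared ones (median 39 reads). In the core the 253 wild-type CpGs without cover in Dnmt3a KO had 3.92%, close to the 3.65% of the 636 shared CpGs. The methylated flank of T, of Hand1 and of the far part of Gata4 thus entered the difference with few CpGs or none. This comparison was also chosen after the data were seen.

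Dnmt TKO cells, which lack the DNA methyltransferases, gave the background of the measurement. Over all 10 genes, 3 of 5905 reads were methylated (0.0508%, Wilson 0.0173 to 0.149%), 1 each at Gata6, Sox17 and Foxa2. Against wild type, the 303 shared core CpGs differed by -3.15 percentage points (-5.04 to -1.26) and the 17 shared flank CpGs by -26.9 (-33.5 to -20.2). Fisher's exact test called 3 core CpGs lower, where 1.94% of the core CpGs of all protein-coding genes were called, and 5 flank CpGs, where the share was 70.3%, beside 19.4% of all CpGs shared by these libraries. None was higher. Between Dnmt3a KO and Dnmt TKO, the 321 shared core CpGs had 0.693% and 0.0351% (difference -0.66, -2.53 to 1.21) and the 26 shared flank CpGs 9.26% and 0 of 333 reads, which allows up to 0.901% (difference -9.26, -16.2 to -2.33). In the flank the interval lay below 0, and in the core it included 0.

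Another 46 regulators and signals of mesoderm and endoderm were measured the same way. In the flank, 28 of them had at least 5 shared CpGs, and all 28 were lower in Dnmt3a KO, near the 94.5% of 8332 protein-coding genes that were lower, with a median of 29.3% in wild type and a median difference of -13.9 percentage points. In the core, 37 of 39 were lower and 2 higher, with a median difference of -0.92, where 66.6% of 12667 protein-coding genes were lower. Called lower were 22 of 2881 core CpGs (0.764%) and 30 of 516 flank CpGs (5.81%), beside 0.283% and 4.99% over all protein-coding genes, and none was called higher.

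The largest flank differences on that list were at Pdx1, the pancreatic homeobox gene, with 44.1% in wild type and 11.4% in Dnmt3a KO (difference -32.7, -41.9 to -23.5, 18 CpGs), and at Foxa1, a paralogue of Foxa2, with 36.2% and 5.12% (-31.1, -40.2 to -21.9, 9 CpGs). Isl1, a LIM-homeobox gene, followed with 35.2% and 6.69% (-28.5, -58.6 to 1.54, 5 CpGs). The smallest were at Tdgf1, a coreceptor of Nodal (0.714% in wild type, 0 of 218 reads in Dnmt3a KO, which allows up to 1.38%, 10 CpGs), at the ligand gene Nodal itself (24.6% and 23.2%, difference -1.44, -8.06 to 5.19, 11 CpGs) and at Gdf3 (1.76% in wild type, 0 of 130 reads in Dnmt3a KO, which allows up to 2.31%, 7 CpGs).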

How the data were processed

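DNA methylation was measured by RRBS in ES cells of 3 genotypes (wild type; Dnmt3a KO; Dnmt TKO), with 1 library each and groups from the genotype in the labels. The authors trimmed reads with Trim Galore, aligned them to mm9 with Bowtie and QuasR, kept reads that map once, removed CpGs over known SNPs, and deposited for each CpG with at least 10 reads the read count, the count of methylated reads and their quotient, a fraction. The counts were used, and the deposited fraction was only compared with them. MspI reads begin at CCGG, so coverage is clustered by fragment, and CpGs away from CpG-rich DNA are few. Column values of no sample numbered 0.

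CpGs with more than 10 reads were kept, and windows were taken from GENCODE vM1 on mm9. Printed sequences were read from the mm9 genome. For sequences, the rule was the stretch with the most called flank CpGs and, for contrast, the 250 bp upstream of the start with the most core CpGs. By that rule Gata6 came second with 8 core CpGs, but its sequence is not printed here and T, with 6, took its place. Of the other germ layer genes, the 3 largest and the 3 smallest flank differences with at least 5 shared CpGs were named. Members and gene lists were chosen with earlier results of these data known. Fisher's exact test per CpG, adjusted by the Benjamini-Hochberg procedure, was checked on simulated data and run in Python 3.11.15 with numpy 2.4.6, pandas 2.3.3, scipy 1.17.1 and numba 0.67.0, and plots were drawn with matplotlib 3.10.9. Alternatives were a minimum of more than 20 reads, as in the study's methods, other definitions of core, window and level, leaving out CpGs inside CCGG or of the highest coverage, and leaving out each gene.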

Additional observations from a re-analysis of the deposited data

How the results depend on the processing

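With 1 library per genotype, none of the alternatives bears on variation between cultures. No paired analysis was possible because each genotype has 1 library. The difference over the core of the 10 genes (-2.75 percentage points) was -1.38 when the core was taken as 1000 bp around the gene start. Leaving out 1 gene at a time, it lay between -3.28 (without Sox17) and -2.10 (without Gsc). The flank difference (-12.5) was -2.87 with more than 20 reads, where 18 shared CpGs remained, -4.49 with the core as 1000 bp around the gene start, -24.3 within 2000 bp of the gene, and -5.92 without Gata4. Without any other gene it lay between -16.0 and -12.1. The number of CpGs called lower in Dnmt3a KO was 6, and 2 with more than 20 reads. By distance, with the core defined by 200 bp windows, the differences were -5.42 up to 500 bp, -40.1 from 500 to 1000 bp (3 CpGs) and -26.9 over 2000 bp (2 CpGs), and the class from 1000 to 2000 bp held no CpG. At Gsc, the core difference was 0.216 within 1000 bp of the gene start. The causes of these shifts were not tested, beyond the smaller numbers of CpGs given here. Of the other alternatives for single genes, 198 values stayed within their error and 61 moved beyond it. Both the wild-type level and depth limit the calls, since 27 of 636 core and 24 of 71 flank CpGs had at least 20% in wild type, and 6 and 9 of those had the depth to be called.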
